A study of Mus musculus with 2 samples.

Results

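The expression of 10 mouse genes of the extracellular matrix, Tnc, Postn, Sparc, Thbs1, Thbs2, Spp1, Ccn1, Ccn2, Ccn3 and Fn1, was followed across the cell classes of peritoneal ovarian tumors. They were chosen by symbol, from a list of matricellular proteins, out of 32285 genes counted, and all 10 were found. The study asked how neutralization of Activin A, a cytokine of the TGFβ family that the paper assigns to cancer-associated fibroblasts, alters the tumor microenvironment. Female C57BL/6 mice of 6 to 8 weeks received an abrasion of the peritoneum and an intraperitoneal injection of syngeneic ovarian cancer cells that lack p53 and carry Myc and Hras. Mice were then injected every day for 10 days with control IgG (7 mice, per the labels) or with the Activin A neutralizing antibody (8 mice), and the tumors at the abraded site were pooled into 1 single-cell RNA sequencing library per group. Both groups thus share the wound, the cancer cells and the injections, and differ in the antibody given. For the mice it sequenced, the paper gives numbers of animals and days and a chemistry that differ from the labels, and which experiment the libraries come from was not settled.

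With 1 pooled library per group there is no spread between mice and no test between groups, and the antibody cannot be told apart from differences in handling between the libraries. Levels are CPM: the unique molecular identifiers (UMIs) of a gene in all cells of a class and library, relative to all UMIs of those cells, on the usual counts-per-million scale. Ratios are log2 ratios of the antibody over the control IgG library, so that -1 is a level 2-fold lower with the antibody. Intervals are at 95%, by the exact Poisson method for levels, the Clopper-Pearson method for shares and the conditional binomial for ratios. They hold counting error only, and understate the error of a gene carried by a handful of cells. A gene is called lower or higher where its level differed at least 2-fold and the interval of the ratio left out 0.

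Matricellular proteins are secreted into the matrix, where they bind receptors, growth factors and structural proteins and alter how cells adhere, migrate and respond to signals, without carrying the load of the tissue themselves. In adults many of them are made at low levels at rest and strongly in wounds, fibrosis and the stroma of tumors. Fibronectin, encoded by Fn1, is a structural adhesive glycoprotein that many of these proteins bind, and is counted among the 10 genes although it is not matricellular in the strict sense. Several of the genes are known targets of TGFβ signaling or of the YAP and TEAD transcription factors, which respond to mechanical tension.

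By their place in GRCm38 (GENCODE M21), Postn (chr3:54361109-54391037) and Ccn1 (chr3:145646976-145649981) lie far apart on the same chromosome, and the other members lie on 8 other chromosomes. Tnc is at chr4:63959785-64047015, Sparc at chr11:55394500-55423183, Thbs1 at chr2:118111876-118127133 and Thbs2 at chr17:14665500-14694235. Spp1 is at chr5:104435118-104441050, Ccn2 at chr10:24595442-24598683, Ccn3 at chr15:54745702-54754039 and Fn1 at chr1:71585520-71653200. The annotated gene Gm42793 overlaps Spp1 on the same strand, and the effect of this overlap on the Spp1 counts was not examined.

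Promoters of 6 members (Tnc, Postn, Sparc, Thbs2, Spp1 and Ccn1) were found in the RefSeq table for GRCm38.p6, and Thbs1, Ccn2, Ccn3 and Fn1 had no entry. The 4 promoters below are shown for different reasons. Tnc was the member with the lowest ratio in fibroblasts, and Postn was higher there by less than 2-fold. Spp1 was lower in macrophages, and Ccn1 is a known YAP and TEAD target. Each run covers 250 bases before to 50 bases after the transcription start nearest to the GENCODE start of the gene. Capitals mark GGAATG (the TEAD element), TGANTCA (AP-1), CAGAC (the SMAD box) and ACCACA (RUNX), each searched on both strands, TATAAA on the strand shown, and the CArG box of serum response factor.
Tnc, chr4:64046966-64047265, minus strand: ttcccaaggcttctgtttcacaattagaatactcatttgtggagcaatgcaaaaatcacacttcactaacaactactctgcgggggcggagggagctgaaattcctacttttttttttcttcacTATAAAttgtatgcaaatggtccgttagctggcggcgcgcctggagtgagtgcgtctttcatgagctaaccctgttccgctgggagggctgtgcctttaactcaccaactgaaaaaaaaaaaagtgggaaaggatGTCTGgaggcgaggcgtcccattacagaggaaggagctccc
Postn, chr3:54360857-54361156, plus strand: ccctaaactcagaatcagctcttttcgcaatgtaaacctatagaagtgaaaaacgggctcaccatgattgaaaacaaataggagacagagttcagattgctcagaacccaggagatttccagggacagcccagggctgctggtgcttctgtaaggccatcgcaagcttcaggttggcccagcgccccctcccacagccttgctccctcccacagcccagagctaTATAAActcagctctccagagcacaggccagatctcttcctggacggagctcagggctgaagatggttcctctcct
Spp1, chr5:104434861-104435160, plus strand: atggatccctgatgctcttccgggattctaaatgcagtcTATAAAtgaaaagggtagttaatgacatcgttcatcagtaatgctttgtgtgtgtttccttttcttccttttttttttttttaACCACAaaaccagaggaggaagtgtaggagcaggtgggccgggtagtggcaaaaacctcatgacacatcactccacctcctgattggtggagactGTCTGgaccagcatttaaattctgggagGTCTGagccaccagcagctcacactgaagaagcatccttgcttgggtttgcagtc
Ccn1, chr3:145649936-145650235, minus strand: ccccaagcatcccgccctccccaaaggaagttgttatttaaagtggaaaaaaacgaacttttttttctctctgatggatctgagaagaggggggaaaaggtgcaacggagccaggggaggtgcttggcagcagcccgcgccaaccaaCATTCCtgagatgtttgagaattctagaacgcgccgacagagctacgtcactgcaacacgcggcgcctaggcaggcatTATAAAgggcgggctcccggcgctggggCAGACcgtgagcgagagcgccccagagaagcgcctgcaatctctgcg

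The TEAD element was found in Ccn1 alone among the 6 promoters, at base -103 from the start, while 14.7% of 32851 RefSeq promoters of the same length hold it. The SMAD box was found in 5 of the 6, Postn being the exception, and in 49.6% of all promoters. For Sparc the RefSeq start lies 3103 bases inside the GENCODE gene, so that its matches come from a window within it, while the other 5 starts lie at most 27 bases from theirs. TATAAA lay at base -26 in Postn and -25 in Ccn1, and further upstream in Tnc (-126) and Spp1 (-211), against 8.32% of all promoters with a match anywhere in the window. The RUNX element was found in Spp1 and Sparc (16.8% of all promoters). AP-1 (7.81%) and CArG (1.63%) gave no match in the 6, which says only that these letters are not in these windows.

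The control IgG library held 8770 kept cells with a median of 5719 UMIs, and the antibody library 6386 cells with 4660 UMIs. Cells were gated into classes by marker genes that include none of the 10 members. Fibroblasts numbered 203 and 225 cells (2.32% and 3.52% of kept cells), C1q macrophages 1384 and 409 (15.8% and 6.41%), cancer-like cells 353 and 390, mesothelial-like cells 37 and 27, and T cells 5023 and 3937. Each class had more of its own markers than of any other class among its 10 leading genes. The gates used these same markers, so that this outcome was largely set in advance and is no check of the class names. In monocyte-like cells the 10 held 2 of their own markers and 1 dendritic marker. Free RNA, read from barcodes under 100 UMIs, was estimated to supply 3.52% of fibroblast UMIs with control IgG and 1.68% with the antibody, from genes that fibroblasts lack. The libraries shared 19 barcodes of kept cells.

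Of the 10 genes, 8 were highest in fibroblasts in both libraries, the exceptions being Spp1 and Thbs1. Postn, periostin, which binds collagen and integrins, was close to restricted to fibroblasts, with 657 CPM (control IgG) and 1193 CPM (antibody) there and at most 2.02 CPM in mesothelial-like cells, cancer-like cells, C1q macrophages, monocyte-like cells and T cells. Fibroblasts held 90.0% and 95.5% of all Postn UMIs of kept cells. Thbs2, thrombospondin-2, an inhibitor of angiogenesis, was similarly placed, with 84.8% and 90.7% of its UMIs in fibroblasts. Tnc, tenascin-C, a large glycoprotein of wounds and tumor stroma, was also made by cancer-like cells, at 54.9 CPM and 38.2 CPM. Because these were the deepest cells (median 55669 and 54408 UMIs), they held 45.2% of all Tnc UMIs with control IgG and 74.3% with the antibody, while the share of fibroblasts was 50.3% and 22.8%.

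Sparc, a collagen-binding glycoprotein of the matrix also called osteonectin, was found in nearly every stromal cell. It measured 8394 CPM and 8003 CPM in fibroblasts, 4633 CPM and 4001 CPM in mesothelial-like cells, and 805 CPM and 764 CPM in cancer-like cells. In C1q macrophages Sparc was 10.5 CPM and 11.7 CPM, against 11.9 CPM and 12.6 CPM computed for free RNA alone, so that no Sparc above free RNA was detectable in them.

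Thbs1, Spp1 and Fn1 were also made by leukocytes. Thbs1, thrombospondin-1, which binds CD36 and CD47 and can activate latent TGFβ, was 636 CPM and 867 CPM in C1q macrophages, 660 CPM and 376 CPM in fibroblasts, and 244 CPM and 410 CPM in monocyte-like cells. Its order thus turned with the library: with control IgG macrophages stood -0.05 on the log2 scale from fibroblasts, and with the antibody macrophages stood first, monocyte-like cells next (1.08 lower) and fibroblasts after them. Spp1, osteopontin, a secreted ligand of integrins and CD44, was highest in cancer-like cells, at 8047 CPM and 5994 CPM, and next in C1q macrophages, at 1406 CPM and 693 CPM. Cancer-like cells held 86.8% and 96.4% of all Spp1 UMIs. Its level in T cells, 59.1 CPM and 41.9 CPM, was near the 44.7 CPM and 33.4 CPM computed for free RNA. Fn1 was above 2000 CPM in fibroblasts, mesothelial-like cells and C1q macrophages of both libraries, and fibroblasts (3821 CPM) and mesothelial-like cells (3713 CPM) of the antibody library differed by 0.04 on the log2 scale.

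Among the CCN proteins, which link growth factors and integrins to the matrix, Ccn1 and Ccn2 were highest in fibroblasts of both libraries. Ccn1 was 356 CPM and 328 CPM in fibroblasts, 95.9 CPM and 113 CPM in mesothelial-like cells and 66.4 CPM and 65.5 CPM in cancer-like cells. Ccn2, also known as connective tissue growth factor, was 338 CPM and 215 CPM in fibroblasts and 10.4 CPM and 7.13 CPM in cancer-like cells. In mesothelial-like cells it was 27.2 CPM with control IgG and had 0 UMIs with the antibody. Ccn3, a member of the family often described as opposing Ccn2, was found at 50.2 CPM and 128 CPM in fibroblasts, which held 79.7% and 87.3% of its UMIs. In leukocytes the 3 CCN genes did not exceed 4.83 CPM in any class of at least 50 cells.

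**Figure D1:**
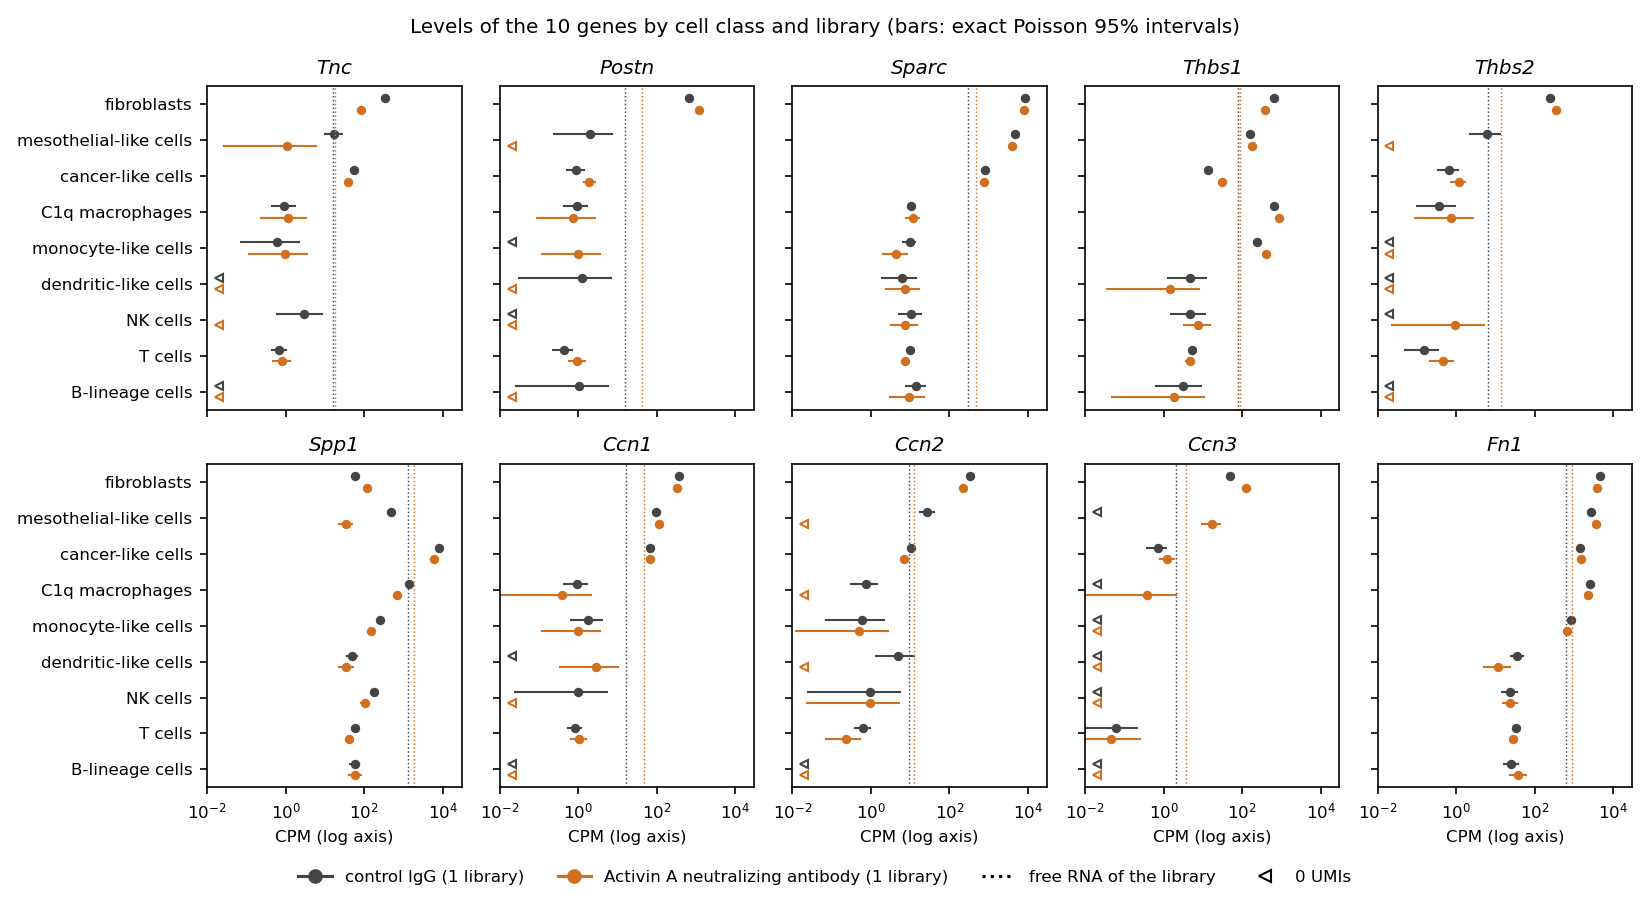
Level of each gene (CPM, log axis) in 9 cell classes, with control IgG in grey and the Activin A neutralizing antibody in orange. Points are the sums over the cells of 1 library, bars are exact Poisson 95% intervals, open triangles are classes with 0 UMIs, and dotted lines mark the level in free RNA. Postn, Thbs2 and Ccn3 stand apart in fibroblasts, and Spp1 in cancer-like cells. Thbs1 is high in fibroblasts, C1q macrophages and monocyte-like cells, and Fn1 in these and in mesothelial-like and cancer-like cells.

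In fibroblasts the 10 genes did not move as a group. Tnc was called lower with the antibody, Spp1 and Ccn3 were called higher, and the remaining 7 differed less than 2-fold. The count of 1 lower gene stands beside 2.33% of 11865 genes called lower in this class, and the 2 higher genes beside 2.82% called higher. The median log2 ratio of the 10 was -0.09, beside 0.04 for all genes tested. By counting error alone, the intervals of 5 members lay below 0 (Tnc, Thbs1, Ccn2, Fn1 and Sparc) and those of 4 above 0 (Ccn3, Spp1, Postn and Thbs2). The share of all genes with such intervals was not computed. With many UMIs an interval leaves out 0 at a small ratio, as for Sparc at -0.07.

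Tnc was 335 CPM (316 to 354) in fibroblasts with control IgG and 82.7 CPM (72.6 to 93.7) with the antibody, 4.05-fold lower (log2 ratio -2.02, -2.22 to -1.82). The 5th and 95th percentiles of all genes were -0.74 and 0.84. Its UMIs were concentrated: the 10% of fibroblasts with most Tnc held 85.0% of them with control IgG and 96.7% with the antibody, and the single highest cell 256 of 1205 UMIs and 77 of 244 UMIs. Without that cell in each library the ratio was -2.21. The contractile genes Acta2 and Tagln, the markers of myofibroblasts, were lower in the same fibroblasts, at 1090.5 CPM and 243 CPM for Acta2 and 807 CPM and 127 CPM for Tagln. The summed level of 8 mesothelial markers was lower as well (240 CPM and 158 CPM, none at 0), and that of 7 cancer-like markers was close (292 CPM and 326 CPM, none at 0).

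Thbs1 was 660 CPM (634 to 688) in fibroblasts with control IgG and 376 CPM (354 to 398) with the antibody. Its ratio of -0.81 (-0.92 to -0.71) lay just below the 5th percentile of all genes (-0.74). Ccn2 was 338 CPM (319 to 358) and 215 CPM (198 to 232), with a ratio of -0.65 (-0.80 to -0.51). Fn1 was 4515 CPM and 3821 CPM, a ratio of -0.24, and Sparc 8394 CPM and 8003 CPM, a ratio of -0.07. Ccn1 was 356 CPM (336 to 376) and 328 CPM (307 to 349), and the interval of its ratio, -0.24 to 0.00, reached 0. Fn1, Sparc and Ccn1 were thus close in the 2 libraries, while Thbs1 and Ccn2 were lower with the antibody by less than 2-fold. Over 17 alternatives the ratio stayed below 0 in 16 for Thbs1 and in 15 for Ccn2. Their values depended on which fibroblasts were counted, in subsets added after the data were seen. In the fibroblasts with under 2 UMIs per 10000 of cancer-like markers (123 and 129 cells) both stayed below 0. In the fibroblasts with under 2 UMIs per 10000 of mesothelial markers (142 and 186 cells) Thbs1 was -1.07 and Ccn2 -1.21, and in the shallower 40 and 74 fibroblasts with no UMI of cancer-like markers both were higher with the antibody, at 0.81 (0.50 to 1.12) and 1.52 (0.90 to 2.18).

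Postn lay on the other side. It was 657 CPM (630 to 684) with control IgG and 1193 CPM (1154 to 1233) with the antibody. Its ratio of 0.86 (0.79 to 0.94) lay just past the 95th percentile of all genes. Thbs2 was 241 CPM (225 to 258) and 356 CPM (334 to 378), a ratio of 0.56. Ccn3 was 50.2 CPM (43.2 to 58.1) and 128 CPM (116 to 142), 2.55-fold higher with the antibody (log2 ratio 1.35, 1.09 to 1.61), on 181 and 378 UMIs. After each cell was thinned to 2000 UMIs, which also gives every cell the same weight, the Ccn3 ratio was 0.13, while it was 0.82 as a mean over unthinned cells.

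Spp1 was 56.6 CPM and 115 CPM in fibroblasts (log2 ratio 1.02, 0.77 to 1.28), of which 44.5 CPM and 31.5 CPM were computed for free RNA. A single fibroblast of the antibody library held 132 of its 340 Spp1 UMIs, and the 10% of cells with most Spp1 held 88.5% of them. The share of fibroblasts with an Spp1 UMI went the other way, 46.3% with control IgG and 27.6% with the antibody, and with equal weight for each cell the log2 ratio was -0.98. Among fibroblasts with under 2 UMIs per 10000 of the cancer-like markers Dlk1, Hmga2, Lgals7, Mid1 and Cdkn2a, it was -0.47. Cancer-like markers did not move together in the fibroblasts: Dlk1 was 11.9 CPM and 86.7 CPM, Hmga2 25.0 CPM and 36.9 CPM, and Krt18 19.7 CPM and 7.12 CPM. All 7 of these markers summed to 292 CPM and 326 CPM. Dlk1 had 0 UMIs in the antibody myofibroblasts (Acta2 or Tagln, below), which include the cell with 132 Spp1 UMIs. The part of cancer-like RNA in the Spp1 levels was not tested. The direction of Spp1 in fibroblasts therefore depended on how cells were weighted and chosen.

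**Figure D2:**
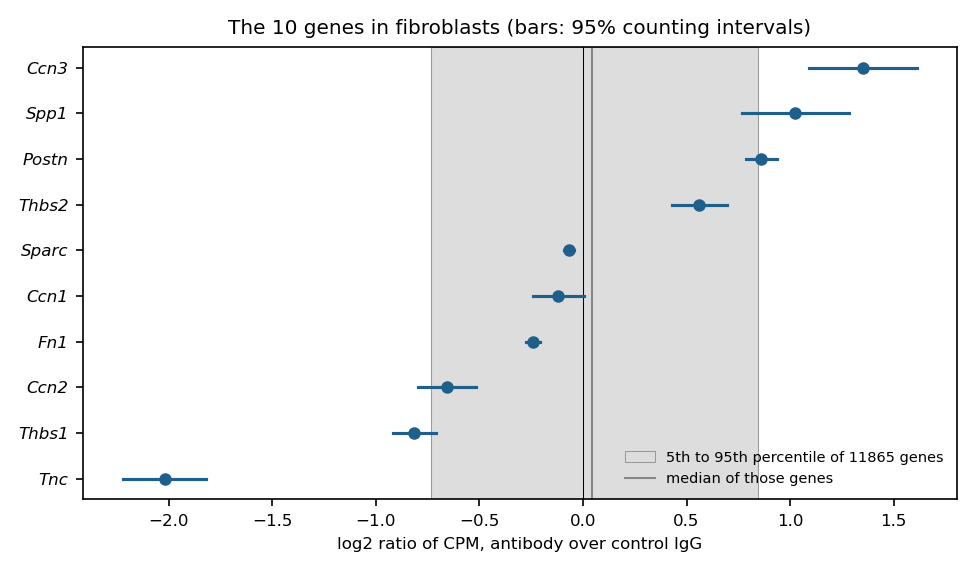
Log2 ratio of CPM, antibody over control IgG, of the 10 genes in fibroblasts, with bars for the 95% counting intervals. The grey band is the 5th to 95th percentile (-0.74 to 0.84) of 11865 genes and the grey line their median. Tnc at -2.02 is far below the band, Ccn3 at 1.35 and Spp1 at 1.02 are above it, and Thbs1 at -0.81 and Postn at 0.86 are just outside its edges.

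The fibroblasts were divided by Acta2 and Tagln and by Pi16 and Car3, and the members had different levels in these subclasses. Acta2 or Tagln myofibroblasts numbered 40 cells with control IgG and 14 with the antibody, and gave 36% and 13.8% of all fibroblast UMIs. Pi16 or Car3 fibroblasts (Pi16 marks adventitial fibroblasts of many tissues) numbered 57 and 84, and the other fibroblasts 106 and 127. Levels in the 14 myofibroblasts of the antibody library rest on few cells: a single cell held 121 of their 164 Postn UMIs and 23 of their 28 Ccn3 UMIs.

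Tnc, Thbs1, Ccn1 and Ccn2 were highest in the myofibroblasts of both libraries. Ccn2 was 740 CPM and 699 CPM in myofibroblasts, 118 CPM and 142 CPM in the other fibroblasts, and 95.5 CPM and 125 CPM in Pi16 or Car3 fibroblasts. Ccn1 was 683 CPM and 566 CPM in myofibroblasts against 131 CPM and 267 CPM in Pi16 or Car3 fibroblasts. Thbs1 was 1132 CPM and 584 CPM in myofibroblasts against 169 CPM and 150 CPM in Pi16 or Car3 fibroblasts. Postn and Ccn3 had the opposite order: Postn was 106 CPM and 402 CPM in myofibroblasts, 798 CPM and 1004 CPM in the other fibroblasts, and 1404 CPM and 2107 CPM in Pi16 or Car3 fibroblasts. Ccn3 was 7.71 CPM and 68.7 CPM in myofibroblasts and 204 CPM and 220 CPM in Pi16 or Car3 fibroblasts. Sparc and Fn1 were made at similar levels by all 3 subclasses, between 6750 CPM and 10414 CPM for Sparc and between 3701 CPM and 5015 CPM for Fn1.

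Tnc was lower with the antibody in myofibroblasts and in the other fibroblasts. It was 602 CPM (561 to 646) and 331 CPM (278 to 392) in myofibroblasts, a log2 ratio of -0.86. In the other fibroblasts it was 246 CPM and 58.3 CPM, a ratio of -2.08. In Pi16 or Car3 fibroblasts it had 14 UMIs in 2 cells and 3 UMIs in 3 cells, too few to compare, and the shares of cells with a UMI were 3.51% and 3.57%. With the subclasses weighted as in the control IgG library, the Tnc ratio over all fibroblasts was -1.19, more than a 2-fold difference. This weighting holds the shares of the subclasses, while their own markers also differed. Acta2 was 2826 CPM and 1285 CPM, and Tagln 2161 CPM and 772.5 CPM, within myofibroblasts. In the other fibroblasts Acta2 was 156 CPM and 99.6 CPM, and in Pi16 or Car3 fibroblasts Car3 was 393 CPM and 8.26 CPM. The part of these differences in the Tnc ratio was not tested.

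The ratio of Ccn2 was 0.01 when the mix of subclasses was held, in place of -0.65. Within myofibroblasts it was -0.08 (-0.28 to 0.11), and in the other subclasses 0.26 and 0.39, with 0 inside each interval. A single cell held 98 of the 285 Ccn2 UMIs of the antibody myofibroblasts, and 152 of 960 with control IgG. A Ccn2 UMI was found in 90% of myofibroblasts with control IgG and 57.1% with the antibody. The ratio within myofibroblasts and that with the mix held therefore rest on few antibody cells. Ccn1 was higher with the antibody in the other fibroblasts (187 CPM and 298 CPM, a ratio of 0.67) and in Pi16 or Car3 fibroblasts (a ratio of 1.02), and slightly lower in myofibroblasts (-0.27). The lower Ccn2 of fibroblasts as a whole thus stood beside smaller shares of myofibroblasts and of myofibroblasts with a Ccn2 UMI. The part of each was not tested. Ccn1 differed in direction between subclasses, a difference that was not tested. Ccn1 is a known immediate-early gene. A list of 18 genes of the immediate-early response and of tissue dissociation (the immediate-early list), with heat shock genes such as Hspa1b, was higher in fibroblasts of the antibody library. It summed to 3975 CPM with control IgG and 6037 CPM with the antibody. Of the list, 5 genes were called higher, beside 2.82% of all genes, and none lower, beside 2.33%. The part of tissue dissociation in the Ccn1 levels was not tested.

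Postn remained higher with the antibody within every subclass, with ratios of 1.92 in myofibroblasts, 0.33 in the other fibroblasts and 0.59 in Pi16 or Car3 fibroblasts, and 0.58 with the mix held. The Postn ratio in myofibroblasts rests largely on the 1 antibody cell that held 121 of 164 UMIs. In the antibody library 1 cell held 455 of the 1825 Postn UMIs of the other fibroblasts, and 1 cell 250 of the 1531 of Pi16 or Car3 fibroblasts. A Postn UMI was found in 46.2% and 49.6% of the other fibroblasts. In Pi16 or Car3 fibroblasts the share went the other way, 80.7% with control IgG and 60.7% with the antibody. Among fibroblasts with under 2 UMIs per 10000 of cancer-like markers, however, the Postn ratio was 0.08. Thbs2 was higher within every subclass as well, with ratios of 0.69, 0.44 and 0.48. In the antibody myofibroblasts 1 cell held 55 of the 134 Thbs2 UMIs. A Thbs2 UMI was found in 67.5% of myofibroblasts with control IgG and 57.1% with the antibody. Thbs1 was lower mainly in myofibroblasts (-0.96), with -0.20 in the other fibroblasts and -0.17 (-0.57 to 0.23) in Pi16 or Car3 fibroblasts. Ccn3 was higher in the other fibroblasts, from 24.6 CPM to 104 CPM, and was close in Pi16 or Car3 fibroblasts (0.11, -0.23 to 0.46).

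**Figure D3:**
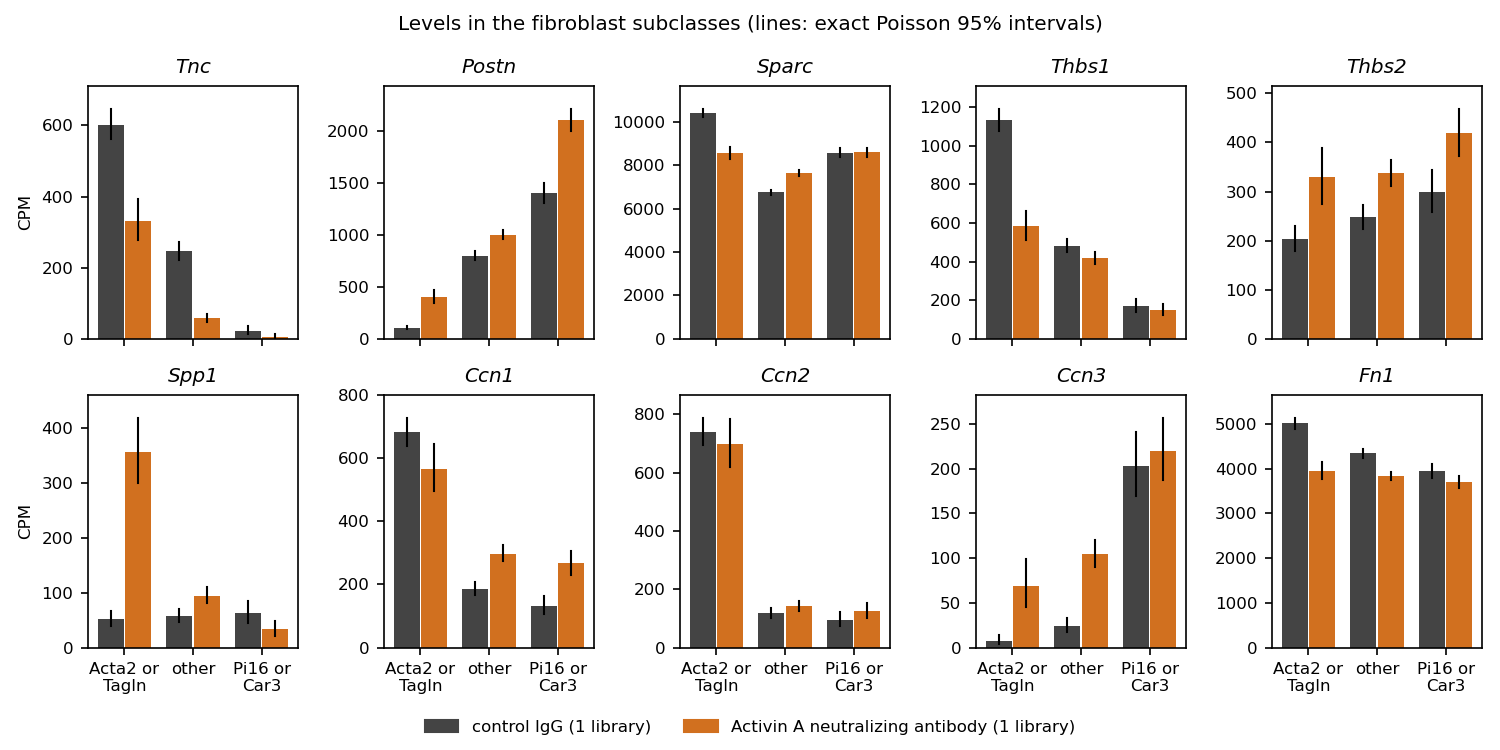
CPM of each gene in Acta2 or Tagln myofibroblasts (40 and 14 cells), other fibroblasts (106 and 127 cells) and Pi16 or Car3 fibroblasts (57 and 84 cells), with control IgG in grey and the antibody in orange, and lines for exact Poisson 95% intervals. Tnc, Thbs1, Ccn1 and Ccn2 are tallest in myofibroblasts, Postn and Ccn3 in Pi16 or Car3 fibroblasts, and Postn is higher with the antibody in all 3.

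The fibroblasts of the control IgG library were deeper (median 14703 UMIs against 9210), and shares of cells with a UMI were therefore compared after thinning to 2000 UMIs, which left 200 and 223 cells. A Tnc UMI was then found in 15.5% of fibroblasts (10.8 to 21.3) with control IgG and 4.04% (1.86 to 7.52) with the antibody, against 29.6% and 13.8% before thinning. In T cells, which should lack Tnc, the thinned shares were 0.12% and 0.18%. Thbs1 was found in 42.0% (35.1 to 49.2) and 29.1% (23.3 to 35.6), and Fn1 in 82.0% (76.0 to 87.1) and 72.6% (66.3 to 78.4). Postn was found in 37.5% and 42.2%, Thbs2 in 35.0% and 41.3%, Ccn1 in 32.5% and 37.7%, Ccn2 in 19.5% and 17.9%, and Ccn3 in 13% and 13.5% of fibroblasts, with overlapping intervals in each pair. Spp1 was found in 9% and 7.62% of thinned fibroblasts, at or below its 10.1% and 8.33% in T cells, and is read as background there. By this measure, among the members, the shares of Tnc alone had intervals that did not overlap. The share of all genes with such intervals was not computed. Overlap does not show that shares were equal, and the intervals of Thbs1 overlapped only from 35.1 to 35.6.

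**Figure D4:**
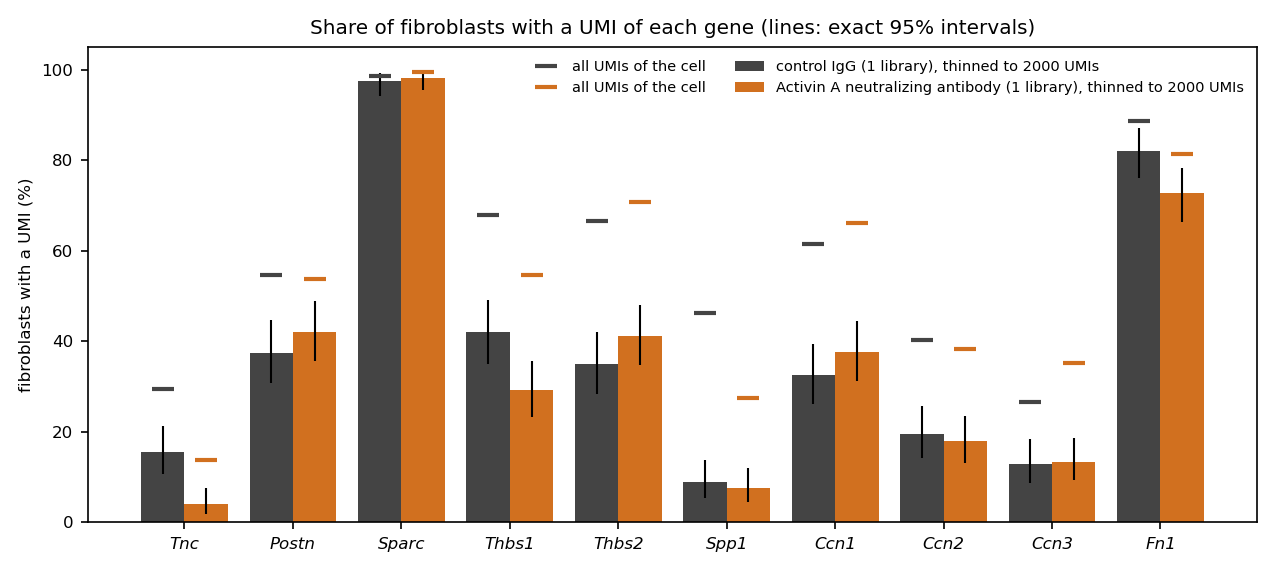
Percent of fibroblasts with at least 1 UMI of each gene. Columns are shares after thinning to 2000 UMIs per cell (200 cells with control IgG in grey, 223 with the antibody in orange), with lines for exact 95% intervals, and dashes are shares with all UMIs of a cell. Among these genes, the Tnc columns, 15.5% and 4.04%, are the pair whose intervals do not overlap, and no share over all genes was computed.

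In C1q macrophages 4 of the 10 genes had at least 20 UMIs, Thbs1, Spp1, Fn1 and Sparc. Spp1 was called lower, beside 1.21% of 11678 genes called lower, and none was called higher, beside 2.82%. Spp1 was 1406 CPM (1383 to 1428) with control IgG and 693 CPM (661 to 725) with the antibody, or -1.02 (-1.09 to -0.95) as a log2 ratio. After thinning, 41.8% (39.2 to 44.5) and 32.8% (28.2 to 37.7) of macrophages held an Spp1 UMI. With a gate of 1 more marker that also removed cells past the gate of any other lineage, 489 and 158 macrophages were left and the ratio was -1.50. Spp1 was lower in monocyte-like cells as well, at 255 CPM and 150 CPM (-0.77), and in cancer-like cells (-0.42).

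Thbs1 went the other way in myeloid cells, with 636 CPM (622 to 652) and 867 CPM (832 to 903) in C1q macrophages, or 0.45 (0.38 to 0.51) as a log2 ratio. In monocyte-like cells it was 244 CPM and 410 CPM, a ratio of 0.75 (0.61 to 0.89). Fn1 differed little, with 2624 CPM and 2285 CPM in macrophages (-0.20) and 818 CPM and 653 CPM in monocyte-like cells (-0.33). The macrophage class itself differed in the 2 libraries: its 7 markers summed to 9855 CPM and 6463 CPM, and the immediate-early list to 6320 CPM and 11554 CPM. Of that list, 5 of 18 genes were called higher, beside 2.82% of all genes. Thbs1 is itself induced early by serum and stress, and the part of that response in its level was not tested.

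In cancer-like cells all 10 genes reached 20 UMIs. None was called lower, beside 2.34% of 14165 genes, and Thbs1 and Postn were called higher, beside 1.79%. Thbs1 was 13.9 CPM (12.3 to 15.6) and 31.1 CPM (28.7 to 33.5), or 1.16 (0.96 to 1.37) as a log2 ratio, with 27.2% and 31% of the cells holding a UMI. The Postn call rests on 17 and 40 UMIs, 17 of the latter in 1 cell, and turned to -0.51 with that stricter gate. Spp1, the member with most UMIs here, was 8047 CPM and 5994 CPM (-0.42), and Tnc 54.9 CPM and 38.2 CPM (-0.52, -0.65 to -0.39). Fn1 (1413 CPM and 1478 CPM), Sparc (805 CPM and 764 CPM) and Ccn1 (66.4 CPM and 65.5 CPM) each differed by less than 0.1 on the log2 scale. Acta2 was lower in the cancer-like cells too, at 8.05 CPM and 3.76 CPM. The immediate-early list summed to 3872 CPM and 4025 CPM, with no gene called in either direction.

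In mesothelial-like cells 6 genes could be compared, on 37 and 27 cells. Spp1 and Ccn2 were called lower, beside 3.63% of 8716 genes, and none was called higher, beside 2.11%. A single cell held 446 of the 471 Spp1 UMIs of the control IgG library, and without the highest cell of each library the log2 ratio was 0.18 in place of -3.81. Ccn2 was 27.2 CPM with control IgG, 19 of 27 UMIs in 1 cell, and 0 of 943605 UMIs with the antibody, where a floor of 3 UMIs is 3.18 CPM. Against that floor the log2 ratio was -3.10, with an interval up to -2.70. It was -1.34 without the highest cell and -0.28 after thinning, where the interval held 0. Fn1 was 2673 CPM (2572 to 2777) and 3713 CPM (3592 to 3838), a ratio of 0.47 (0.40 to 0.55), Sparc was lower (-0.21), and the intervals of Thbs1 and Ccn1 held 0. The summed level of the 7 cancer-like markers also differed here, at 2056 CPM and 1327 CPM. They include the keratins Krt8 and Krt18, and Krt8 was among the 10 leading genes of mesothelial-like cells themselves. Krt18 was 509 CPM and 255 CPM, Hmga2 37.3 CPM and 1.06 CPM, and Dlk1 8.07 CPM and 15.9 CPM. The part of these markers in the ratios was not tested.

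**Figure D5:**
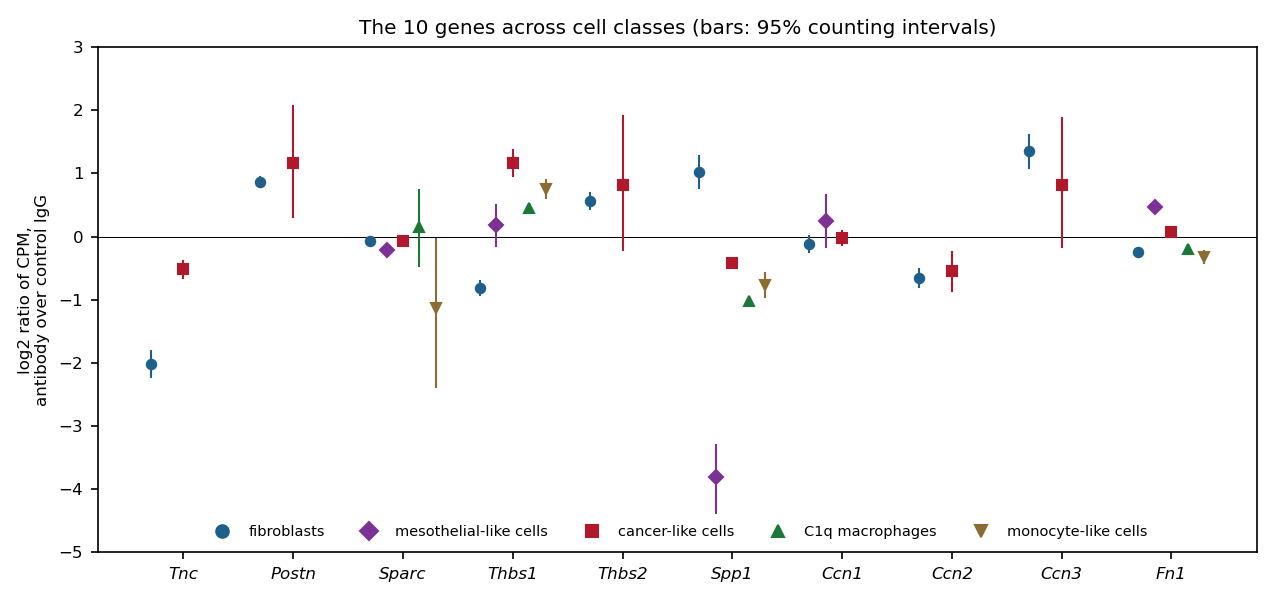
Log2 ratio of CPM, antibody over control IgG, of each gene in the classes where it had at least 20 UMIs over both libraries and a UMI in each, with bars for 95% counting intervals. Thbs1 is below 0 in fibroblasts (-0.81) and above 0 in cancer-like cells (1.16), C1q macrophages (0.45) and monocyte-like cells (0.75), Spp1 is below 0 in cancer-like cells, C1q macrophages and monocyte-like cells, and the mesothelial-like Spp1 value of -3.81 rests on 1 cell.

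The genes around the 10 members were read from lists of other matricellular genes, their receptors, other YAP and TEAD targets and other TGFβ and activin response genes. In fibroblasts, 16 of 21 other matricellular genes reached 20 UMIs, with a median log2 ratio of 0.51 beside 0.04 for all genes. Of these, 3 were called higher, beside 2.82% of all genes, and none lower, beside 2.33%. Smoc2, a secreted calcium-binding relative of SPARC, was 127 CPM and 271 CPM (1.09), Ccn5, a member of the CCN family, 32.5 CPM and 73.9 CPM (1.18), and Thbs4 154 CPM and 284 CPM (0.88). The third called gene was Spock3. Others of the list lay below 0, namely Spon2 (188 CPM and 124 CPM, -0.60), Ccn4 (86.9 CPM and 57.9 CPM, -0.58) and Tnn (9.44 CPM and 4.74 CPM, -0.99), with intervals that left out 0.

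Of 20 other YAP and TEAD targets in fibroblasts, 18 reached 20 UMIs, with a median of 0.01. Of these, 2 were called lower, beside 2.33% of all genes, and 1 higher, beside 2.82%. Ankrd1, a muscle ankyrin-repeat protein, was 35.0 CPM and 17.3 CPM (-1.02) and Nt5e, the enzyme CD73, 36.4 CPM and 16.9 CPM (-1.10), while F3, tissue factor, was 17.5 CPM and 40.7 CPM (1.22). Of 15 other TGFβ and activin response genes, 4 were called lower, beside 2.33% of all genes, and none higher, beside 2.82%. Their median was -0.06. The 4 were Acta2, Tagln and Cnn1, which are contractile genes, and Ltbp2, a latent TGFβ binding protein relative of elastic fibers, at 97.5 CPM and 31.5 CPM (-1.63). Acta2 and Tagln also defined the myofibroblasts, of which the antibody library held fewer. Inhba, which encodes the subunit of Activin A, was 40.5 CPM and 20.3 CPM in fibroblasts and 78.3 CPM and 107 CPM in cancer-like cells.

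Of the receptors of the members, 18 reached 20 UMIs in fibroblasts, with a median of -0.11. Of these, 3 were called lower (Itga4, Itgam and Itgb2), beside 2.33% of all genes, and none higher, beside 2.82%. Itgam (6.11 CPM and 2.37 CPM) and Itgb2 (9.72 CPM and 4.74 CPM) are leukocyte integrins, and the share of free RNA in fibroblasts was also lower with the antibody (3.52% and 1.68%), whose part was not tested. Itga5, the fibronectin receptor chain, was 281 CPM and 175 CPM (-0.68), and Itgb5 and Itgb3 were 0.50 and 0.65 higher on the log2 scale. In C1q macrophages, Cd36, the thrombospondin and lipid receptor, was 65.2 CPM and 178 CPM (1.45, 1.28 to 1.62). It was the single receptor called of 17, beside 2.82% of all genes called higher. Cd44, the osteopontin and hyaluronan receptor, was 335 CPM and 505 CPM (0.59). Of 11 other TGFβ and activin response genes with at least 20 UMIs in these macrophages, 1 was called lower and none higher, with a median of 0.04. All genes called were 1.21% lower and 2.82% higher. The called gene was Pmepa1, a feedback inhibitor of TGFβ signaling, at 87.1 CPM and 40.7 CPM (-1.10). Id3 (63.4 CPM and 115 CPM, 0.85) and Bhlhe40 (146.5 CPM and 239 CPM, 0.70) lay above 0.

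The patterns over 9 classes and both libraries, 18 points in all, were compared by Pearson's r of log2(CPM + 10) as a description. The points share their libraries, and most members are near 0 in the lymphocyte classes, so that r is high for any pair of genes made by the same class. Among members, Postn and Thbs2 were most alike (0.997), followed by Sparc and Ccn1 (0.986) and Thbs2 and Ccn2 (0.962), while Thbs1 was most like Fn1 (0.864). Spp1 resembled no other member, with r from -0.20 for Ccn3 to 0.49 for Fn1. Over all genes, Tnc was most like Myl9 (0.983), a myosin light chain of contractile cells, Thbs1 was most like Sqor (0.983), and Fn1 was most like Timp1 (0.972), an inhibitor of matrix metalloproteinases.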

How the data were processed

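Tumors at the abraded peritoneum of each group were pooled and sequenced as 1 droplet library per group. As deposited, the matrices hold unfiltered UMI counts for every barcode, which the authors made with Cell Ranger (7.0.1 per the submitters' processing notes, 4 per the file header) on mm10. Of 32285 gene identifiers 99.6% matched GENCODE M21, whose coordinates are used. The libraries held 98174850 and 74117462 UMIs.

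Barcodes were kept as cells where they had between 1000 and 8500 genes, between 1000 and 100000 UMIs, and a mitochondrial share of 10% or less. A cell entered a class when at least 3 of its markers were detected and their sum was at least 10 UMIs per 10000. Some overlaps of gates were resolved by rule. Cells past the mesothelial gate were not counted as cancer-like cells or fibroblasts. Other cells past both of those gates were cancer-like with at least 3 non-keratin cancer-like markers, and otherwise fibroblasts. Cells past the T and NK gates were T cells, and the monocyte gate gave way to any other. Cells still past the gates of 2 lineages were left out as possible doublets. No doublet caller was run, so that doublets of the resolved pairs can remain in the classes. Counts were summed per class and library. Genes with at least 20 UMIs over both libraries were compared, and listed genes with at least 100 UMIs and the 3 largest log2 ratios were named. Other listed genes that are named were chosen after their values were seen. There was no test, as each group is 1 library. The members, gene lists and gates were chosen with earlier results of these data known, the gates after marker distributions had been seen. Alternatives to scaling, gating, cell filters, free RNA and depth were tried, and interval code was tested on simulated data. Analyses used Python 3.11.15, numpy 2.4.6, scipy 1.17.1, pandas 2.3.3 and matplotlib 3.10.9.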

Additional observations from a re-analysis of the deposited data

Results flagged for a closer look

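For 3 of the genes the log2 ratio of antibody over control IgG had opposite signs in different cell classes, each with a counting interval that left out 0. The share of all genes with such opposite signs was not computed, and with many UMIs an interval leaves out 0 at a small ratio. With 1 library per group none of these differences was tested. Thbs1 was lower with the antibody in fibroblasts (-0.81) and higher in cancer-like cells (1.16), a difference of 1.98. In the shallower 40 and 74 fibroblasts with no UMI of cancer-like markers Thbs1 was 0.81, the direction of the cancer-like cells. In fibroblasts it stayed below 0 in 16 of 17 alternatives. Fn1 was higher in mesothelial-like cells (0.47) and lower in fibroblasts (-0.24), a difference of 0.72, while in the fibroblasts with no UMI of cancer-like markers it was 0.09 with 0 in the interval. Spp1 was higher in fibroblasts (1.02) and lower in mesothelial-like cells (-3.81), a difference of 4.83. The Spp1 pair rests on few cells on both sides, with 446 of 471 mesothelial-like UMIs of the control IgG library and 132 of 340 fibroblast UMIs of the antibody library each in a single cell.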

How the results depend on the processing

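Of 403 alternatives for 30 log2 ratios, 32 changed the sign, 7 of them that of a ratio called at least 2-fold. Spp1 in fibroblasts turned to -0.98 as a mean over cells, and, in alternatives added after seeing the data, to -0.47 in fibroblasts low in cancer-like markers, -0.38 in those with no UMI of these markers and -1.25 in those with no UMI of mesothelial markers. Postn in cancer-like cells turned to -0.51 with a stricter gate. Spp1 in mesothelial-like cells turned to 0.34 without the 5% of cells with most UMIs and to 0.18 without its highest cell. Thbs1 in C1q macrophages over the next class was -0.054 in the control IgG library alone. Of the 32, 6 had intervals that left out 0 before and after. Besides Spp1 without mesothelial markers these were Thbs1 (0.81) and Ccn2 (1.52) in fibroblasts without cancer-like markers, Sparc in fibroblasts (0.098 without the 5% of cells with most UMIs, 0.148 without mesothelial markers) and Fn1 in thinned cancer-like cells (-0.131). Tnc in fibroblasts stayed below 0 in 17 of 17 alternatives (-3.29 to -1.19), Spp1 in C1q macrophages in 12 of 12 (-1.50 to -0.93), and Thbs1 in cancer-like cells stayed above 0 in 12 of 12 (0.75 to 1.27).

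The median of the 10 genes in fibroblasts (-0.09) was -0.19 as a mean over cells, 0.070 without the 5% of cells with most UMIs, 0.030 thinned, 0.068 with the mix of subclasses held, -0.32 in fibroblasts low in cancer-like markers, 0.31 in those without them and 0.0042 in those without mesothelial markers. It was -0.062 in cancer-like cells with the stricter gate, and 0.25 in mesothelial-like cells without the highest cell of each gene. The count of genes at least 2-fold lower in fibroblasts was 3 in those low in mesothelial markers and 2 in those with none, in place of 1. The share of all genes called lower in these subsets was not computed. The causes were not tested. The stricter gate left no mesothelial-like cells and gave no value there. No paired analysis was possible because only 1 library exists for a group, and for the same reason no replicate could be left out.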
